A study of Mus musculus with 6 samples.

Results

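The uroplakins and urothelial markers examined here are 9 genes chosen by symbol in the deposited count matrix: Upk1a, Upk1b, Upk2, Upk3a, Upk3b, Krt20, Krt13, Snx31 and Gata3. All 9 were found among the 21718 genes of the table. They were chosen because earlier results of the same data had shown high values in 1 sample, so their levels and fold changes are given as a description and support nothing. RNA was measured in prostate tumours of mice of a genetically engineered prostate cancer model, the same in both groups. Every recipient, aged 6 weeks, received 900 rad and then donor marrow, was castrated at 8 weeks, and gave its tumour 16 weeks after castration. The F10-intact group (3 samples) received F10fl/fl marrow without Cre, and the F10-deleted group (3 samples) received F10fl/fl; LysM-Cre+ marrow, in which Cre from the myeloid lysozyme locus acts on F10, the coagulation factor X gene. How complete the deletion was, and how many host cells remained in the marrow, was not measured in these files. The labels number the samples 1, 3 and 4 in each group. They do not say that each came from a separate animal, so the p-values describe the spread of these samples, which may be technical.

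Urothelium is the stratified lining of the bladder, ureters and upper urethra, the tube into which the prostate ducts open. Its superficial umbrella cells carry plaques of uroplakin proteins, built from pairs in which the tetraspanin Upk1a binds Upk2 and the tetraspanin Upk1b binds Upk3a or Upk3b. Krt20 is a keratin of umbrella cells, Krt13 a keratin of the layers under them, Snx31 a sorting nexin that associates with uroplakins in the endosomal system, and Gata3 a transcription factor of urothelium that lymphocytes and other epithelia also use.

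Libraries held 9237308 to 11821588 counts. The targeted gene, F10, was at 2 to 17 counts per library with overlap between the groups, too few in whole tissue to check the labels. Levels are given as CPM, counts scaled to library size with TMM factors. Of the defining prostate genes, the prostate homeobox gene Hoxb13 stood at 35.1 to 211 CPM in the 6 samples. The secretory gene Msmb had at most 1 count in any sample and Folh1, a prostate surface enzyme, at most 5. Among the 15963 genes that passed the filter on low counts, F10-deleted sample 3 was more than 2-fold above the highest of the other 5 samples for 123 genes. By the same measure F10-intact sample 4 gave 120 genes and the remaining samples 5 to 63. F10-intact sample 4 was more than 2-fold below the lowest of the other 5 for 819 genes, where the other samples gave 18 to 42. The members' fold changes are given with and without F10-deleted sample 3, and for most members also without F10-intact sample 4.

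F10-deleted sample 3 had the highest level of 7 of the 9 genes: the 5 uroplakins, Krt20 and Snx31. It was the highest sample for 17.2% of all genes tested. For 6 of them, all but Upk1b, it was more than 4-fold above the next sample, a distance that 0.244% of all genes reached. The other 2 genes, Krt13 and Gata3, did not follow it: sample 3 held rank 4 and rank 5 of the 6 samples. F10-intact sample 4 had the lowest level of 8 of the 9 genes, where it was lowest for 27.8% of all genes. Apart from sample 3, the F10-deleted group did not stand out as a group for most of the 9.

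**Figure D1:**
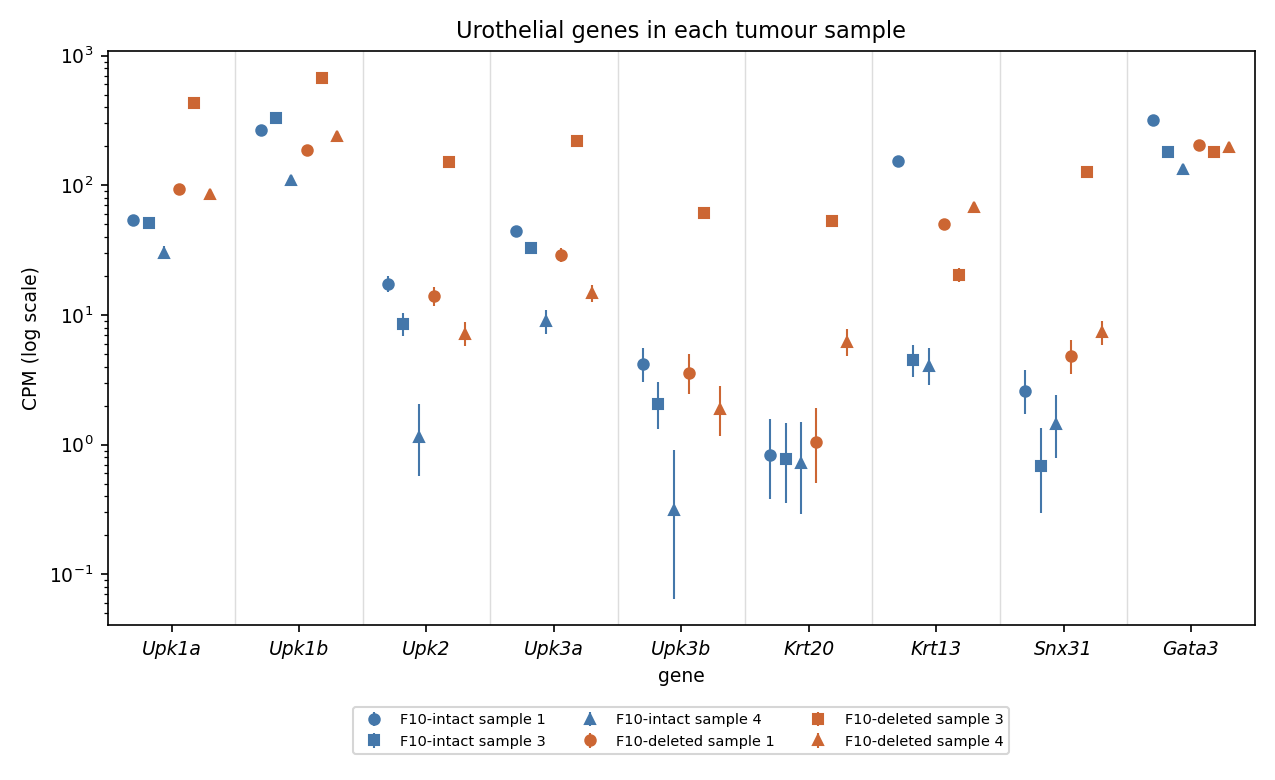
CPM of the 9 genes on a log axis, 1 point per sample, with exact Poisson 95% intervals that cover counting error only. F10-deleted sample 3 (orange squares) lies above every other sample for 7 genes, while Krt13 and Gata3 show no such separation.

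Of the tetraspanins, Upk1a (ENSMUSG00000006313, chromosome 7, 30603092 to 30612847, minus strand, GRCm38) stood at 53.9, 51.3 and 30.3 CPM in F10-intact samples 1, 3 and 4 and at 94.3, 428 and 86.4 CPM in F10-deleted samples 1, 3 and 4. The groups did not overlap, and sample 3 was 4.54 times the next sample. Upk1b (ENSMUSG00000049436, chromosome 16, 38773184 to 38800328, minus strand) stood at 268, 331 and 109 CPM in the F10-intact samples and at 187, 671 and 241 CPM in the F10-deleted samples. Sample 3 was 2.03 times the next sample, the smallest distance among the uroplakins. The other F10-deleted samples lay inside the F10-intact range.

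Upk2 (ENSMUSG00000041523, chromosome 9, 44452715 to 44454976, minus strand), the partner of Upk1a, stood at 17.3, 8.49 and 1.14 CPM in the F10-intact samples and at 14.0, 151 and 7.16 CPM in the F10-deleted samples. Upk3a (ENSMUSG00000022435, chromosome 15, 85017141 to 85022547, plus strand), a partner of Upk1b, stood at 44.2, 32.8 and 8.92 CPM in the F10-intact samples and at 29.1, 220.0 and 14.8 CPM in the F10-deleted samples. For both genes the groups overlapped, since the other F10-deleted samples were below F10-intact sample 1. Sample 3 was 8.72 times the next sample for Upk2 and 4.98 times for Upk3a. Upk3b (ENSMUSG00000042985, chromosome 5, 136038496 to 136046487, plus strand), the alternative partner of Upk1b, stood at 4.15, 2.06 and 0.311 CPM in the F10-intact samples and at 3.57, 61.5 and 1.88 CPM in the F10-deleted samples. Sample 3 held 727 Upk3b counts where the other 5 held 3 to 45, and its level was 14.8 times the next. The 3 counts in F10-intact sample 4 leave that level uncertain, with a 95% Poisson interval of 0.0641 to 0.909 CPM. Upk3bl, a gene related to Upk3b that fell under the filter, had 0 to 5 counts per F10-intact library and 6, 37 and 10 counts in F10-deleted samples 1, 3 and 4, again with the highest count in sample 3.

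Krt20 (ENSMUSG00000035775, chromosome 11, 99428403 to 99438150, minus strand) was near its detection limit in 4 of the 6 samples. It stood at 0.831, 0.771 and 0.726 CPM in the F10-intact samples and at 1.05, 52.8 and 6.14 CPM in the F10-deleted samples. The groups did not overlap, but F10-deleted sample 1 exceeded the F10-intact samples by a margin inside counting error, with 10 counts against 7 to 9. Snx31 (ENSMUSG00000013611, chromosome 15, 36504062 to 36555573, minus strand) stood at 2.58, 0.686 and 1.45 CPM in the F10-intact samples and at 4.83, 127 and 7.33 CPM in the F10-deleted samples. Sample 3 was 17.4 times the next sample, the largest distance among the 9 genes, and the groups did not overlap.

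Krt13 (ENSMUSG00000044041, chromosome 11, 100117327 to 100121566, minus strand) varied most among the samples other than sample 3, by a ratio of 38.1 between the highest and lowest. It stood at 154, 4.46 and 4.04 CPM in the F10-intact samples and at 50.4, 20.5 and 68.1 CPM in the F10-deleted samples. F10-intact sample 1 was the highest, and the F10-deleted samples lay between it and the other F10-intact samples. Gata3 (ENSMUSG00000015619, chromosome 2, 9857078 to 9890034, minus strand) varied least, by a ratio of 2.39 among the samples other than sample 3. It stood at 322, 182 and 134 CPM in the F10-intact samples and at 204, 180 and 197 CPM in the F10-deleted samples. F10-intact sample 1 was again the highest. The annotation places 77 bases of Gata3 exon under 9230102O04Rik on the same strand and 155 under Gm13256 on the opposite strand, so a few reads could belong to those genes, and the other 8 genes share no exon with another gene.

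Promoter sequence from RefSeq (GRCm38.p6) was listed for 6 of the 9 genes. The 250 bases before the start are shown for 3 genes that were high in sample 3 (Upk3a, Upk3b and Krt20) and for Krt13, which was not, to set genes that were high together beside one that was not. The windows are chr15:85016891-85017140 (plus strand) for Upk3a, chr5:136038246-136038495 (plus strand) for Upk3b, chr11:99438154-99438403 (minus strand) for Krt20 and chr11:100121567-100121816 (minus strand) for Krt13. Capitals mark, on either strand, the GATA factor letters (AGATAA, the same ending in G, which is AGATAG, and the forms that begin with T, which are TGATAA and, ending in G, TGATAG). They also mark, on either strand, the nuclear receptor element AGGTCA. On the gene's own strand they mark the TATA box letters TATAAA.
Upk3a: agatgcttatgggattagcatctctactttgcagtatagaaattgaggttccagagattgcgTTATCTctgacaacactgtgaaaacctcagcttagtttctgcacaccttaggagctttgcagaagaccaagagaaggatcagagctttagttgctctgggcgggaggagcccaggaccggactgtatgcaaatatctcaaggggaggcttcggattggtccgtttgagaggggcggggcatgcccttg
Upk3b: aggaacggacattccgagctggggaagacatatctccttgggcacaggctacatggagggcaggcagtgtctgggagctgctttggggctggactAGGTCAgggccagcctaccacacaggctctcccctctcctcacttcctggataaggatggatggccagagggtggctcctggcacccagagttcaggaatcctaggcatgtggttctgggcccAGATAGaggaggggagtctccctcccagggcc
Krt20: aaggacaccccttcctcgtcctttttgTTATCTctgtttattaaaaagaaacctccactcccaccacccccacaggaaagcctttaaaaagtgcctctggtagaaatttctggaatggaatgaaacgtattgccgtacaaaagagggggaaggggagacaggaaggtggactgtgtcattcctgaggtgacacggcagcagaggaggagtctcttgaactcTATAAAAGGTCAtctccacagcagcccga
Krt13: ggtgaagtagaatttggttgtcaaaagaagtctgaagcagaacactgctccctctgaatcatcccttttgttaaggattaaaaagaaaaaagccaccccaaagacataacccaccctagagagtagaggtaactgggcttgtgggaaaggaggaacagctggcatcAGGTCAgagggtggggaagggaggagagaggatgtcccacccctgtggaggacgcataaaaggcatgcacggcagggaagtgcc
GATA letters were found before Upk3a, Upk3b and Krt20, and also before Upk1a, whose window is not shown. They began 188 bases before the start in Upk3a, 32 in Upk3b, 223 in Krt20 and 102 in Upk1a. None were found in either listed window of Krt13, of which the outer one is shown, or in that of Gata3, and 26.6% of the 32817 RefSeq promoter windows of this length hold them. GENCODE exons cover 113 of the 250 bases of the Upk1a window, on the side where its GATA letters lie. They cover all 250 bases of the Gata3 window. Those windows are thus partly or wholly annotated exon, which limits their comparison with the others. AGGTCA was found before Upk3b, Krt20 and Krt13, and 14.0% of windows hold it. TATAAA was found before Krt20, where it adjoins AGGTCA, and in 7.60% of windows. The grainyhead letters AACNNGTT, searched because Grhl3 is described below, were in none of the members' windows and in 3.64% of all. These matches describe letters and do not show binding.

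Levels of different genes were compared per kilobase of merged exon (CPM per kb). Upk1b was the highest of the 9 genes in every sample, from 52.2 CPM per kb in F10-intact sample 4 to 321 in F10-deleted sample 3. Upk3b was the lowest uroplakin in every sample, at 0.0881 to 1.18 CPM per kb in the 5 other samples and 17.4 in sample 3. The 5 uroplakins summed to 224, 233 and 82.8 CPM per kb in the F10-intact samples and to 196, 981 and 197 CPM per kb in the F10-deleted samples. Outside sample 3 the sums of the F10-deleted samples lay within the F10-intact range.

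The mixture of uroplakins also differed in sample 3. Upk1b made up 32.7% of the summed per-length level there and 45.6% to 68.0% in the other 5 samples. Upk2 made up 14.2% in sample 3 and 1.27% to 7.16% in the others, and Upk3a 20.5% against 6.86% to 18.1%. The ratio of Upk1b to its partner Upk3a was 1.60 in sample 3 and 3.17 to 8.54 elsewhere. For Upk1a over its partner Upk2 the ratio was 2.16 in sample 3, close to the 2.37 of F10-intact sample 1, and 4.61 to 20.2 in the other 4 samples. Upk1a made up 30.7% in sample 3, inside the range of the others, and 15.5% to 25.7% in the F10-intact samples against 30.7% to 33.8% in the F10-deleted samples. With 1 such sample these ratios have no replicate check.

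**Figure D2:**
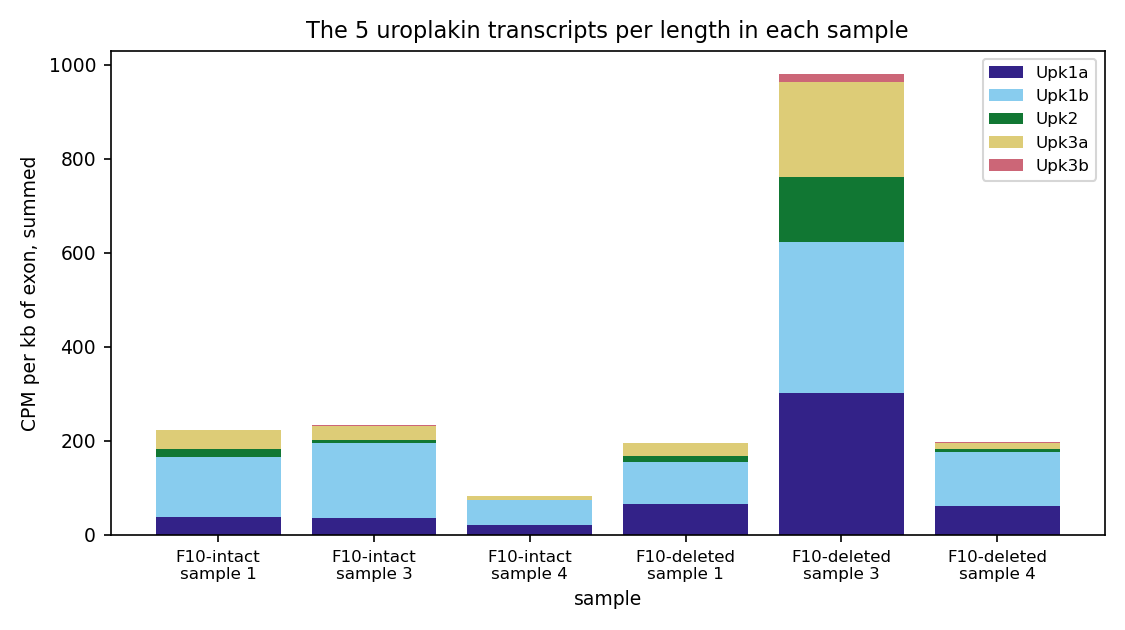
Stacked bars of the 5 uroplakins in CPM per kb of merged exon, 1 bar per sample, with no error since each bar is 1 library. The bar of F10-deleted sample 3 reaches 981, and those of the other 5 samples lie between 82.8 and 233.

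Between the marrow groups, none of the 9 genes passed the edgeR quasi-likelihood test across all genes at an adjusted p of 0.05. All 9 were tested. Among all genes 0.0439% passed, 7 in all and 2 with the replicate number as a block, and nothing is read from that share because the genes were chosen from this contrast. At an unadjusted p under 0.05 the members Upk1a, Krt20 and Snx31 were counted, 3 of 9 where all genes gave 10.9%. The count was 3 without F10-deleted sample 3, 0 without F10-intact sample 4, and 2 with the replicate block, where Snx31 was no longer counted. The same 3 were those whose groups did not overlap, where 16.7% of all genes did not. DESeq2 called 1 member, Krt20, where it called 3.18% of all genes, and gave no adjusted p for Upk3b and Snx31. limma-voom called 0 members.

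The log2 fold change of F10-deleted over F10-intact was above 0 for 7 of 9 genes, where 47.3% of all genes were. Its median was 2.17 over the 9 genes and -0.02 over all genes tested. Without F10-deleted sample 3 the median of the 9 was 0.25, with 6 of 9 above 0 where 51.6% of all genes were, and it was 0.01 over all genes. Without F10-intact sample 1 the median of the 9 was 3.47.

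Upk1a had a log2 fold change of 2.17 ± 0.67 (SE, n = 3 per group, edgeR adjusted p = 0.316), from a mean of 45.2 ± 13.0 CPM to 203 ± 195 CPM (SD). Without sample 3 it was 1.03 ± 0.27 (edgeR adjusted p = 0.363), so both its size and its error were smaller. Krt20 was at 4.67 ± 1.41 (edgeR adjusted p = 0.308, DESeq2 adjusted p = 0.0236) and at 2.25 ± 0.74 without sample 3 (edgeR adjusted p = 0.586). Snx31 was at 4.89 ± 1.50 (edgeR adjusted p = 0.318) and at 1.98 ± 0.56 without sample 3 (edgeR adjusted p = 0.455). These 3 genes kept values above 0 without sample 3, and none passed.

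The partner uroplakins differed from them. Upk2 was at 2.67 ± 1.35, Upk3b at 3.34 ± 1.49 and Upk3a at 1.62 ± 1.08 with all samples, and at 0.25 ± 0.92, 0.33 ± 0.87 and -0.37 ± 0.65 without sample 3. Upk1b was at 0.63 ± 0.57 and at -0.11 ± 0.45 without sample 3. Without sample 3 the values of these 4 genes were within 1 standard error of 0. Krt13 was at -0.23 ± 1.35 and Gata3 at -0.13 ± 0.30, both within 1 standard error of 0. The sign for Krt13 depended on F10-intact sample 1, without which it was 3.47, and on the replicate block, with which it was 1.49. Without F10-intact sample 4, which was low for 8 of the 9 genes, Upk1a was at 1.95 ± 0.90, Upk2 at 2.16 ± 1.64 and Upk3b at 2.85 ± 1.94. Upk1b at 0.29 ± 0.60 and Upk3a at 1.19 ± 1.36 were then within 1 standard error of 0. Krt20 was at 4.63 ± 2.12 and Snx31 at 4.84 ± 2.24, with larger errors than with all samples. Whether a difference in such bulk samples reflects the number of cells or the RNA per cell cannot be told apart.

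**Figure D3:**
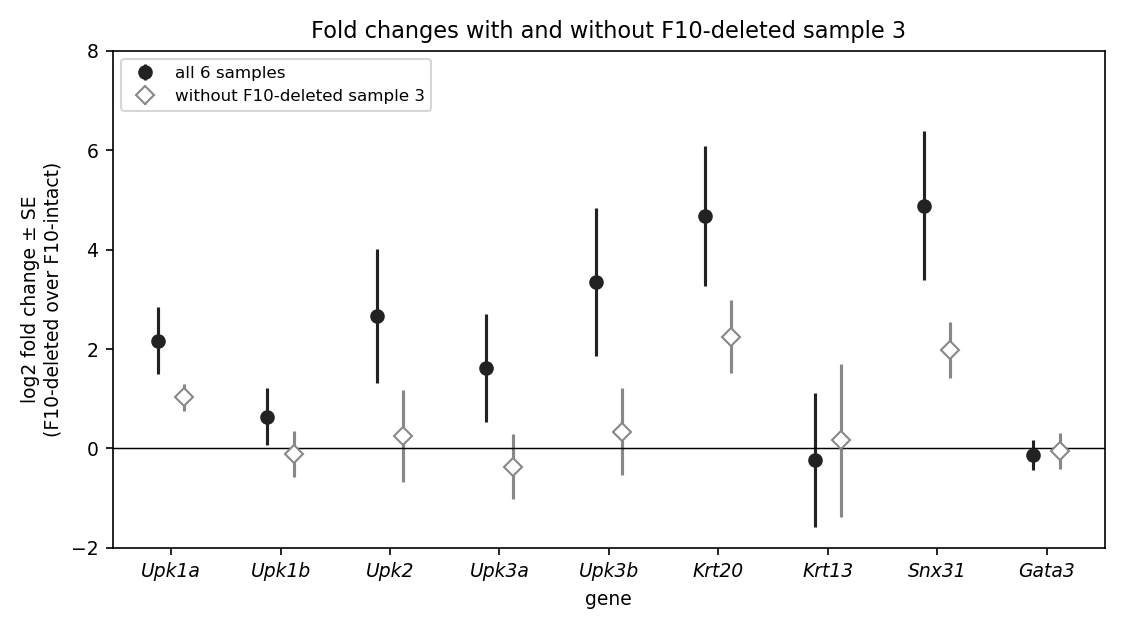
Log2 fold change of F10-deleted over F10-intact with its standard error, for all 6 samples (filled circles) and without F10-deleted sample 3 (open diamonds). Without that sample Upk1a, Krt20 and Snx31 stay above 0 at 1.03, 2.25 and 1.98, and the values of the other 6 genes lie within 1 standard error of 0.

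Other genes of urothelium were taken from lists chosen with earlier results of these data known. In them, 0 genes passed the edgeR test in either direction. Of 115 listed genes that were tested besides the 9 members, 11 were more than 2-fold above the next sample in F10-deleted sample 3, where 0.771% of all genes were, and 5 were more than 4-fold above it. The 11 were Mal, Sytl2, Pparg, Grhl3, Aqp3, Slc14a1, Krt7, Shh, Ivl, Sprr1a and Psca.

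Among 9 genes of vesicle traffic to the umbrella cell surface, 4 had a log2 fold change above 0 and the median was -0.05. Sytl2, a synaptotagmin-like effector of Rab27 proteins, stood at 3.51, 4.46 and 5.08 CPM in the F10-intact samples and at 5.04, 44.7 and 7.59 CPM in the F10-deleted samples. Mal, a raft protein of apical transport, stood at 208 CPM in sample 3 and 19.5 to 95.5 CPM in the others. In all, 4 of the 9 were highest in sample 3, where 17.2% of all genes were. Myo5b, a vesicle motor, stood at 98.2 CPM there and 56.9 to 73.6 CPM elsewhere, while Rab27b, a small GTPase of secretory vesicles, stood at 174 CPM, inside the 70.0 to 193 CPM of the other samples.

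Of 9 transcription factors of urothelial differentiation other than Gata3, 6 were above 0 and the median was 0.47. Grhl3, a grainyhead factor of umbrella cells and other barrier epithelia, stood at 1.57, 0.857 and 0.415 CPM in the F10-intact samples and at 2.63, 30.0 and 4.61 CPM in the F10-deleted samples. The groups did not overlap (log2 fold change 3.69 ± 1.04, edgeR adjusted p = 0.265, DESeq2 adjusted p = 0.00131), and without sample 3 the value was 1.95. Pparg, a nuclear receptor of urothelium and of adipocytes, stood at 11.6, 13.3 and 11.6 CPM in the F10-intact samples and at 22.2, 61.1 and 27.1 CPM in the F10-deleted samples, also without overlap (1.60 ± 0.38, edgeR adjusted p = 0.194, DESeq2 adjusted p = 0.00276). Adipocyte markers summed to 29.6, 9.17 and 2.38 CPM in the F10-intact samples and to 127, 12.4 and 122 CPM in the F10-deleted samples. They were thus highest in F10-deleted samples 1 and 4 and within the F10-intact range in sample 3, and their part in the Pparg values was not tested. Foxa1, a forkhead factor of urothelium and of prostate, stood at 320 CPM in sample 3 and 229 to 533 CPM elsewhere.

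Of 11 junction, channel and transport genes, 8 were above 0, with a median of 0.29. Aqp3, a water and glycerol channel, stood at 3.23, 1.89 and 0.726 CPM in the F10-intact samples and at 4.83, 166 and 7.76 CPM in the F10-deleted samples. Slc14a1, a urea transporter, stood at 8.86, 6.69 and 3.42 CPM in the F10-intact samples and at 9.56, 54.6 and 10.8 CPM in the F10-deleted samples. In both genes sample 3 stood apart, by 21.4 and 5.04 times the next sample, and the other F10-deleted samples were above the F10-intact ones. F10-deleted sample 1 exceeded F10-intact sample 1 by a small margin for Slc14a1, inside counting error, with 91 counts against 96 in a larger library. For Aqp3 it had 46 counts against 35. Without sample 3 the log2 fold change was 1.71 for Aqp3 and 0.72 for Slc14a1. For the other 9 genes sample 3 was at most 1.30 times the highest of the others, the value of the claudin Cldn4. Scnn1a, a sodium channel subunit, had the smallest p of the list and was higher in all F10-deleted samples, at 42.9, 49.0 and 59.1 CPM in the F10-intact samples and at 74.2, 82.8 and 68.8 CPM in the F10-deleted samples (log2 fold change 0.58 ± 0.16, edgeR adjusted p = 0.242).

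Keratins shared by all luminal epithelium did not follow the uroplakins. Krt8 stood at 1210 CPM in sample 3 and at 965 to 1237 CPM in the other samples. The summed level of Krt7, Krt8, Krt18 and Krt19 was 5293 CPM in sample 3 and 3923 to 5322 CPM elsewhere, so the sum of these 4 keratins was inside the range of the others. This sum does not stand for all epithelial genes. The epithelial cadherin Cdh1 was highest in sample 3, at 1354 CPM against 851 to 1209 CPM. The claudin Cldn7 was not, at 158 CPM against 143 to 210 CPM. Within these 4, Krt7, a keratin of urothelium and ducts, stood at 590 CPM in sample 3 and 154 to 261 CPM elsewhere, while Krt19, a keratin of simple epithelium, stood at 2197 CPM, below 4 of the other 5 samples.

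Basal cell genes of urothelium and prostate were set less by sample 3. All 9 had log2 fold changes above 0, with 0 past the edgeR test, and in 4 the groups did not overlap, where 47.3% of all genes were above 0 and 16.7% did not overlap. Their median was 0.86 with all samples and 0.82 without sample 3. Krt15, a basal keratin, stood at 1169, 828 and 454 CPM in the F10-intact samples and at 1556, 2542 and 1411 CPM in the F10-deleted samples (1.17 ± 0.38, edgeR adjusted p = 0.319, DESeq2 adjusted p = 0.0341). Col17a1, a hemidesmosome collagen, stood at 60.4, 41.8 and 41.1 CPM in the F10-intact samples and at 91.7, 91.9 and 73.6 CPM in the F10-deleted samples (0.84 ± 0.19, edgeR adjusted p = 0.163, DESeq2 adjusted p = 0.00799). Trp63, the basal transcription factor p63, stood at 49.8, 45.2 and 26.7 CPM in the F10-intact samples and at 59.7, 93.6 and 68.6 CPM in the F10-deleted samples (0.86 ± 0.27, edgeR adjusted p = 0.301). In none of these 3 genes did the groups overlap. Shh, the hedgehog ligand made by basal urothelium, differed from the rest of that list, at 34.9 CPM in sample 3 and 3.21 to 8.95 CPM elsewhere.

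Of 13 genes of squamous differentiation 9 were tested, and 7 of those were above 0. Ivl, the cornified envelope protein involucrin, stood at 166 CPM in sample 3 and 2.38 to 30.4 CPM elsewhere, and Sprr1a, another envelope protein, at 376 CPM against 57.9 to 100.0 CPM. In all, 3 of the 9 tested squamous genes were highest there, with Sbsn, an epidermal secreted protein, at 38.1 CPM against 16.9 to 35.9 CPM. Others were not: Dsc3, a desmosomal cadherin, stood at 41.4 CPM in sample 3 and 44.1 CPM in F10-deleted sample 1, and Krt16, a keratin of stressed squamous epithelium, at 1.95 CPM in sample 3 and 3.41 CPM in F10-deleted sample 4. The squamous keratin Krt10 was lowest in sample 3, at 5.08 CPM against 5.49 to 44.8 CPM elsewhere. Krt1 stood at 3.13 CPM there and 1.04 to 33.1 CPM elsewhere. Of 7 genes of proximal prostate luminal cells, 5 were above 0. Psca, a surface protein of urothelium and proximal prostate, stood at 71.6, 37.9 and 19.8 CPM in the F10-intact samples and at 92.3, 302 and 97.7 CPM in the F10-deleted samples, without overlap. Krt4, a keratin of proximal prostate and of stratified epithelium, stood at 505, 302 and 144 CPM in the F10-intact samples and at 576, 902 and 609 CPM in the F10-deleted samples, also without overlap.

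Of 7 tested genes of distal prostate luminal cells, 2 had a log2 fold change above 0, and the median of the 7 was -0.68, or -0.46 without sample 3. Pbsn, the androgen-driven secretory gene probasin, stood at 37.2, 46.0 and 62.6 CPM in the F10-intact samples and at 4.52, 13.4 and 20.6 CPM in the F10-deleted samples (-1.91 ± 0.49, edgeR adjusted p = 0.233, DESeq2 adjusted p = 0.00297). Hoxb13 stood at 76.0, 101 and 211 CPM in the F10-intact samples and at 60.8, 45.3 and 35.1 CPM in the F10-deleted samples (-1.46 ± 0.40, edgeR adjusted p = 0.253, DESeq2 adjusted p = 0.00808). In both genes the groups did not overlap, and sample 3 was neither the highest nor the lowest of its group.

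**Figure D4:**
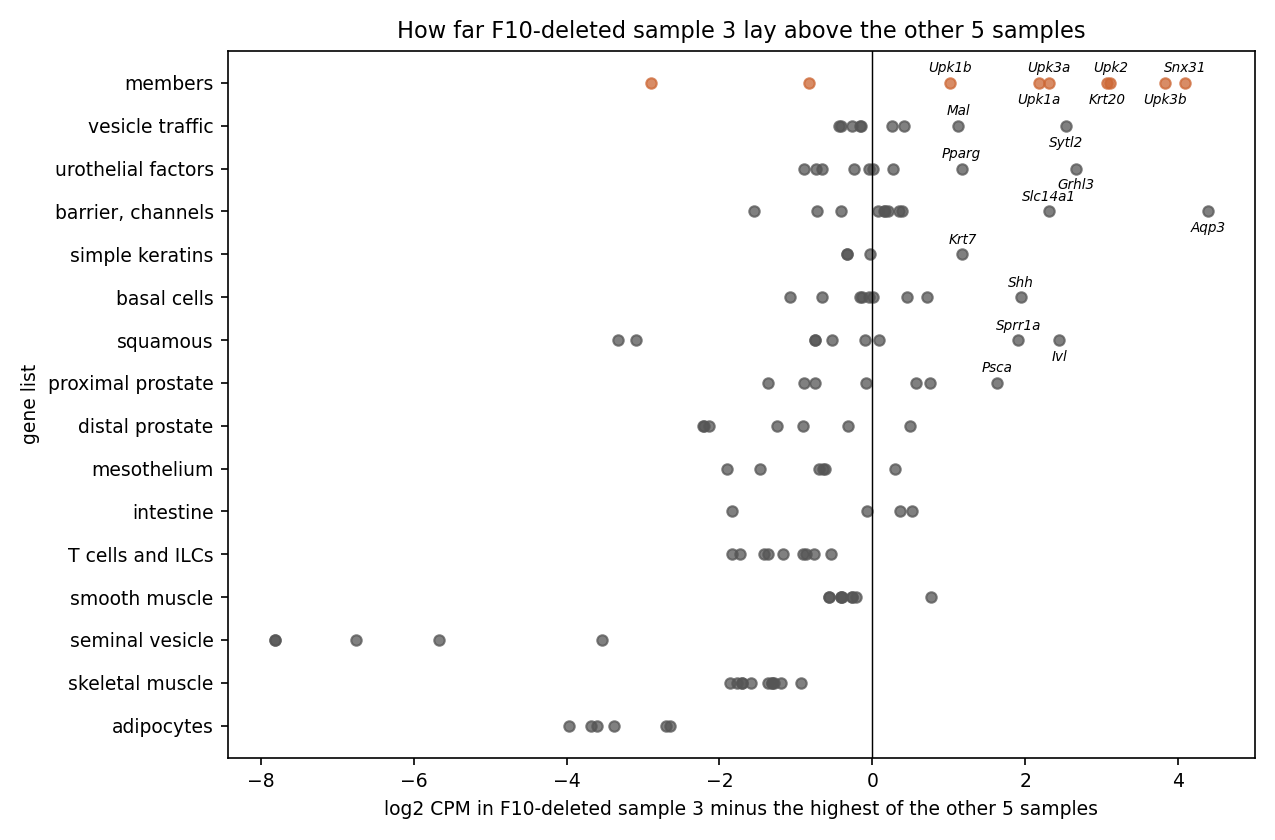
Difference in log2 CPM (prior count 2) between F10-deleted sample 3 and the highest of the other 5 samples, 1 point per tested gene, by gene list, with names where it exceeds 1. Points right of 4-fold (a difference of 2) are 6 of the 9 members, in orange, and Sytl2, Grhl3, Slc14a1, Aqp3 and Ivl.

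Markers of other cell types that use some of these genes were measured beside them. Mesothelium, which also makes Upk3b, summed to 27.1 CPM over 7 markers in sample 3 and 26.7 to 36.3 CPM elsewhere, and its defining genes Msln and Wt1 stood at 9.64 and 5.41 CPM there, inside the range of the other samples. All 7 mesothelial markers had counts there. Intestinal epithelium, which also makes Krt20, summed to 82.6 CPM over 5 markers in sample 3 and 24.1 to 94.2 CPM elsewhere, with F10-deleted sample 4 the highest. Its brush border gene Vil1 stood at 35.3 CPM in sample 3 and 4.15 to 36.9 CPM elsewhere. Its cadherin Cdh17 was highest in sample 3, at 38.0 CPM against 13.1 to 29.7 CPM, as was its transcription factor Cdx1, at 2.03 CPM against 0 to 1.36 CPM. Its fatty acid binding gene Fabp2 had 0 to 4 counts in the 6 samples. T cells and innate lymphoid cells, which also make Gata3, summed to 37.3 CPM over 9 markers in sample 3 and 63.5 to 87.0 CPM elsewhere. Smooth muscle, as found in the wall of bladder and urethra, summed to 2659 CPM over 9 markers in sample 3 and 956 to 3515 CPM elsewhere. Within that list Actg2, a visceral smooth muscle actin, was highest in sample 3, at 116 CPM against 21.4 to 68.3 CPM. The 4 summed levels lay inside or below the range of the other samples, and the part of the single genes that were highest there was not tested.

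Other markers moved with samples or groups. Seminal vesicle genes summed to 327 CPM in sample 3, where F10-intact sample 4 had 78.8 CPM and the other samples 915 to 4179 CPM. Pate4 alone gave 321 CPM of the sum in sample 3, inside its range of 7.26 to 3736 CPM elsewhere. The other tested genes of that list were lowest in sample 3. Svs2 stood at 1.44 CPM there against 15.7 to 364 CPM elsewhere, and Svs4 at 3.55 against 20.7 to 403 CPM. Svs5 stood at 0.423 against 13.8 to 136 CPM, and Svs6 at 0 against 0.857 to 9.12 CPM. Skeletal muscle markers summed to 144, 25.3 and 15.6 CPM in the F10-intact samples and to 2210, 907 and 2114 CPM in the F10-deleted samples, so muscle RNA was higher in the whole F10-deleted group and was lowest of that group in sample 3. F10-intact sample 4 was lowest for 10 of the 11 muscle genes, for all 9 smooth muscle genes and for 7 of the 9 basal genes. The part of these markers in the values of Upk1a, Krt20 and Snx31 was not tested.

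**Figure D5:**
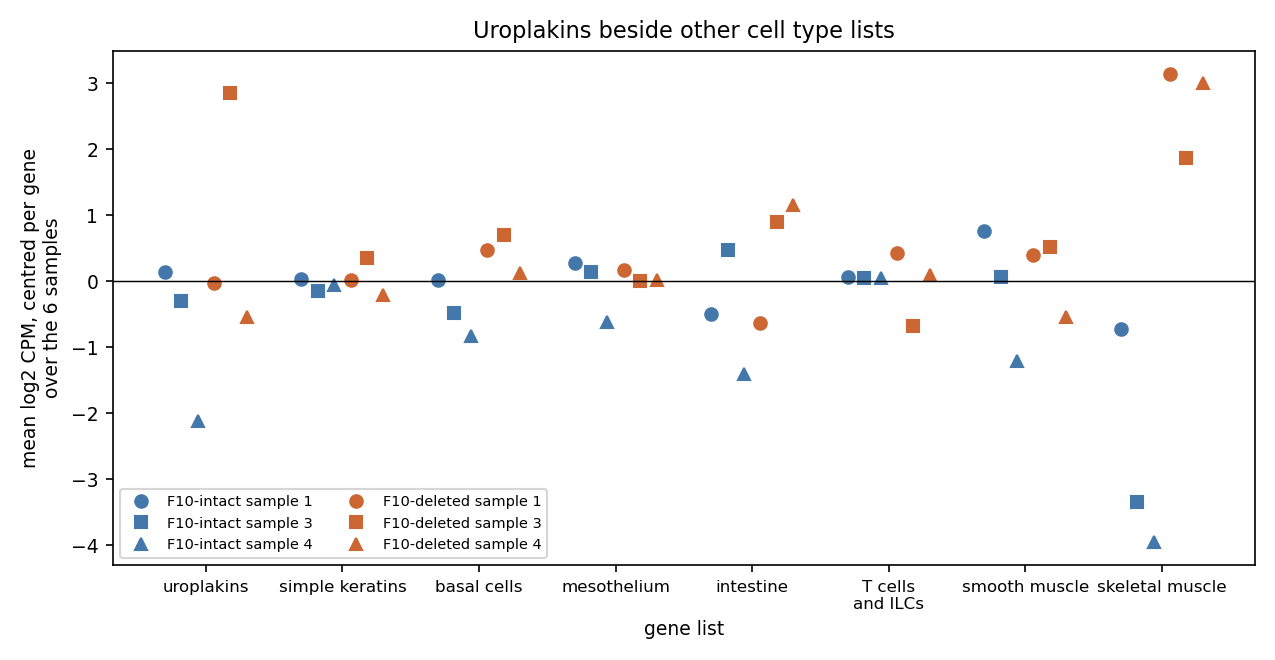
Mean log2 CPM of each list, centred per gene over the 6 samples, 1 point per sample (blue F10-intact, orange F10-deleted). Uroplakins set F10-deleted sample 3 at 2.85 and F10-intact sample 4 at -2.12, while skeletal muscle splits the marrow groups.

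Among genes outside the member list, those with the largest distance between F10-deleted sample 3 and the next sample were Cyp4f15, Aqp3, Fmo5, Sptssb, Nipal4, Galnt16, Gjb6 and Acer2. Cyp4f15, a cytochrome P450 that hydroxylates fatty acids, stood at 53.4 CPM in sample 3 and 0.207 to 1.29 CPM elsewhere. Fmo5, a flavin monooxygenase, stood at 523 CPM against 7.57 to 25.2 CPM. Sptssb, a subunit of serine palmitoyltransferase, stood at 153 CPM against 0.622 to 8.02 CPM, and Acer2, a ceramidase, at 227 CPM against 14.3 to 26.2 CPM. Sptssb and Acer2 both act on sphingolipids. Of the 39 genes more than 4-fold above the next sample, 6 were members, 5 were in the other lists and 28 were in none. F10-intact samples 1 and 4 had 6 such genes each, F10-deleted sample 4 had 1, and F10-intact sample 3 and F10-deleted sample 1 had 0.

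The genes whose profile over the 6 samples lay nearest to the mean profile of the 9 members were Slc14a1, Nqo1, Psca, Shh, Gstm1, Ldhb, Dmkn and Sh3gl2. Likeness was the root mean square difference of the centred log2 CPM, which was 0.255 for Slc14a1 and 0.445 for Sh3gl2. Nqo1, a quinone reductase, stood at 7.94, 4.97 and 1.35 CPM in the F10-intact samples and at 5.88, 36.1 and 8.78 CPM in the F10-deleted samples. Gstm1, a glutathione transferase, stood at 522, 322 and 155 CPM in the F10-intact samples and at 411, 2204 and 301 CPM in the F10-deleted samples. Both had their highest value in sample 3 and their lowest in F10-intact sample 4, as the uroplakins did. Against the mean profile of the 5 uroplakins alone, the nearest were Ttr, Vsig2, Gstm1, Nqo1, Sh3gl2, Slc14a1, Tsku and Ldhb, at 0.286 to 0.487. Vsig2, an immunoglobulin-domain membrane protein, stood at 30.4 CPM in sample 3 and 0.415 to 4.06 CPM elsewhere. The likeness rests on 6 samples of which 1 stands far out.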

How the data were processed

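The deposited table holds raw counts for 6 samples, 1 row per Ensembl gene. The submitters' processing notes list STAR 2.7.10a, GRCm38 and DESeq2 with no roles. Which program counted reads, with which strand option and annotation, is not given in the sources used here. Libraries were poly-A selected and stranded, per the labels' protocols. Symbols, coordinates and merged exon lengths came from GENCODE M21 (GRCm38), which matched 21605 of 21718 identifiers.

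The members and gene lists were chosen with earlier results of these data known. The main test was the edgeR 4.0.16 quasi-likelihood test (R 4.3.3, robust) with TMM factors, filterByExpr at a minimum count of 10 (15963 genes kept) and Benjamini-Hochberg adjustment at 0.05, without a block. Standard errors are the log2 fold change over the root of the F statistic. CPM uses TMM-scaled totals, and log2 CPM for differences and profiles a prior count of 2. Intervals of counts are exact Poisson ones. The fits were tested on simulated counts. Alternatives were DESeq2 1.42.0, limma-voom (limma 3.58.1), RLE and upper quartile scaling, no filter, at least 1 CPM in 3 samples, a prior count of 0.5, leaving out 1 sample at a time, and the replicate number as a block.

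Named were all members, the genes with the smallest p in most of the lists, the 8 genes nearest to the members' and to the uroplakins' mean profile, and the 8 with the largest distance in F10-deleted sample 3. Listed genes more than 2-fold above the next sample there, and those given to show the rest of a list, were named after their values were seen.

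The deviations of same-numbered samples from their group's mean correlated over genes at 0.35, 0.135 and 0.181 for numbers 1, 3 and 4. All exceeded 0.1, so a pairing by number is possible, but these values alone do not show it. The main test does not use such a pairing, so its standard errors and adjusted p-values leave it out. With the replicate number as a block the log2 fold change was 1.79 ± 0.46 for Upk1a, 3.65 ± 1.14 for Krt20 and 3.52 ± 1.43 for Snx31. Correlations between differently numbered samples are not given here. The labels name no shared day or litter. The recipients' tumour-model allele and 1 listed prostate gene are not reported here. Same-group samples differed beyond sampling noise, with a chi-square per degree of freedom of 22.3 to 77.5.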

Additional observations from a re-analysis of the deposited data

How the results depend on the processing

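Of 15963 genes tested, edgeR called 7. The count was 487 with DESeq2, and 2 each with limma-voom, with the replicate block and with the filter of at least 1 CPM in 3 samples. It was 0 to 72 with 1 sample left out: 0 without F10-deleted sample 4 and without F10-intact sample 3, 1 without F10-deleted sample 1, 5 without F10-intact sample 4, 18 without F10-deleted sample 3 and 72 without F10-intact sample 1. The members called were 0 in each of these fits except DESeq2, which called 1 (Krt20, log2 fold change 4.70). Of the other listed genes edgeR called 0 and DESeq2 24, among them 10 of skeletal muscle, 4 squamous and 3 of distal prostate. edgeR called 0 to 8 with 1 sample left out: Pck1, an adipocyte gene, without F10-deleted sample 3, and 7 skeletal muscle genes and Col17a1 without F10-intact sample 1. With 1 sample left out the log2 fold change ran from -0.11 to 0.98 for Upk1b and from -0.37 to 2.12 for Upk3a, with the lowest value of each, opposite in sign to that from all samples, without F10-deleted sample 3. It ran from -0.77 to 3.47 for Krt13 and from -0.38 to 0.32 for Gata3, with both lowest values without F10-intact sample 4 and both highest without F10-intact sample 1. Krt13 was also above 0 without F10-deleted sample 3 (0.16), with limma-voom (1.52) and with the replicate block (1.49). The cause was not tested. The replicate block changed no call among the members. RLE and upper quartile scaling moved no member across 0. Krt20, Snx31 and Upk3b had under 50 counts in most samples, which limits their precision outside F10-deleted sample 3.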
